A study of Homo sapiens with 6 samples.

Results

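The genes described here are those whose symbols name calcium channel, sodium channel or potassium channel subunits, taken by their CACN, SCN and KCN symbols. The rule took 139 of the 27968 genes in the tables. It is wider than voltage-gated channels alone. The pore-forming subunits of voltage-gated calcium, sodium and potassium channels made up 60 of the 139, and the others were their auxiliary subunits, inward rectifier (KCNJ), leak (KCNK) and calcium- or sodium-activated potassium channels, and the non-coding RNAs KCNQ1OT1 and KCNQ1DN. All 6 libraries came from H23, a human lung adenocarcinoma cell line grown in RPMI1640 and transfected with an siRNA by the lipid reagent RNAiMAX. In 3 libraries the cells had received HOTAIR-N siRNA, directed at a transcript form of the lncRNA HOTAIR, and in the other 3 a control siRNA. Each library stood for an independent transfection, and total RNA was taken 48 hours later, so p-values measure the spread between transfections of 1 cell line. No siRNA sequence was used here, and with 1 siRNA per group an effect of its target and an effect of the siRNA itself cannot be told apart.

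Voltage-gated channels open when the membrane depolarises and let calcium, sodium or potassium ions pass. A calcium channel consists of a pore-forming alpha1 subunit with a cytoplasmic beta and an extracellular alpha2delta subunit, both of which help bring the pore to the cell surface. Sodium channels pair a pore-forming alpha subunit with beta subunits of the immunoglobulin fold, and potassium channels assemble from several pore subunits, with further auxiliary proteins. These genes are best known from neurons and muscle. In epithelial tumour cells, potassium channels also set the resting membrane potential and cell volume.

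The 6 libraries held 32715361 to 36578681 expected counts each, of which the channel genes took 0.0555 to 0.0590 percent. HOTAIR had 88, 74 and 82 expected counts with HOTAIR-N siRNA, against 169, 148 and 202 with control siRNA, a log2 fold change of -1.04 (SE 0.14; edgeR, adjusted p = 1.32e-05), and by exact permutation of the libraries (two-sided) p was 0.1, which is as low as 3 against 3 can go. All pairs of replicates differed by more than sampling noise, control replicate 1 most of all. Of the epithelial genes, KRT8 and KRT18 stood at 1334 to 2809 TPM (the share of a library's transcripts, adjusted for length) in every library, CDH1 at 11.6 to 25.3 TPM, and KRT19 and EPCAM at 4.8 to 7.99 TPM. Of the alveolar genes, NKX2-1 stood at 1.06 to 3.02 TPM and NAPSA at 0.41 to 0.69 TPM, and the surfactant genes SFTPB and SFTPC at 0 to 0.05 TPM. The leukocyte gene PTPRC and the endothelial gene PECAM1 were at 0 to 0.02 TPM, while CDH5, the other endothelial gene, had 0.12 to 0.31 TPM. The muscle genes MYH2, MYH6, MYH7 and TNNT2 were at 0 to 0.06 TPM. The neuronal marker SYT1 had 0.80, 0.91 and 0.70 TPM with HOTAIR-N siRNA, against 3.08, 4.08 and 3.69 TPM with control siRNA, while RBFOX3, the other neuronal marker, did not pass the test at 0.27 to 0.47 TPM. CDH1 and NKX2-1 rose and KRT18 and VIM fell. The part of these shifts in the results below was not tested.

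Most channel genes were at 0 or low in H23 cells. Of the 139, 18 had a count of 0 in all 6 libraries and 68 were too low to test. These include the L-type calcium channel genes CACNA1C and CACNA1S and the sodium channel genes SCN1A, SCN4A and SCN10A. None of the genes not tested had more than 17 counts in a library except KCNJ18, which shares its sequence with KCNJ12. Among all 139, 42 had a mean of at least 1 TPM with HOTAIR-N siRNA and 41 with control siRNA, and 8 and 10 had at least 10 TPM. Summed over all channel genes, the level was 295.9, 322.2 and 314.2 TPM with HOTAIR-N siRNA and 294.2, 294.9 and 275.5 TPM with control siRNA. The lowest HOTAIR-N siRNA library lay just above the highest control library.

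KCNMA1, the pore of the large-conductance calcium-activated (BK) channel, was among the channel genes of highest level, with 35.2 ± 0.754 TPM with HOTAIR-N siRNA and 32.5 ± 0.9701 TPM with control siRNA (SD, n = 3 each). KCNC4 and KCNG1 had lower control means, of 19.3 and 15.1 TPM. With HOTAIR-N siRNA KCNG1 had 16.5 ± 1.55 TPM (SD, n = 3). CACNA2D1, KCNK5, CACNB3, KCNN4 and KCNK15 followed in this order with control means between 11.5 and 13.8 TPM, and each overlapped with the next. KCNQ5 and CACNG4, near 10 TPM with control siRNA, lost most of that level with HOTAIR-N siRNA.

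**Figure D1:**
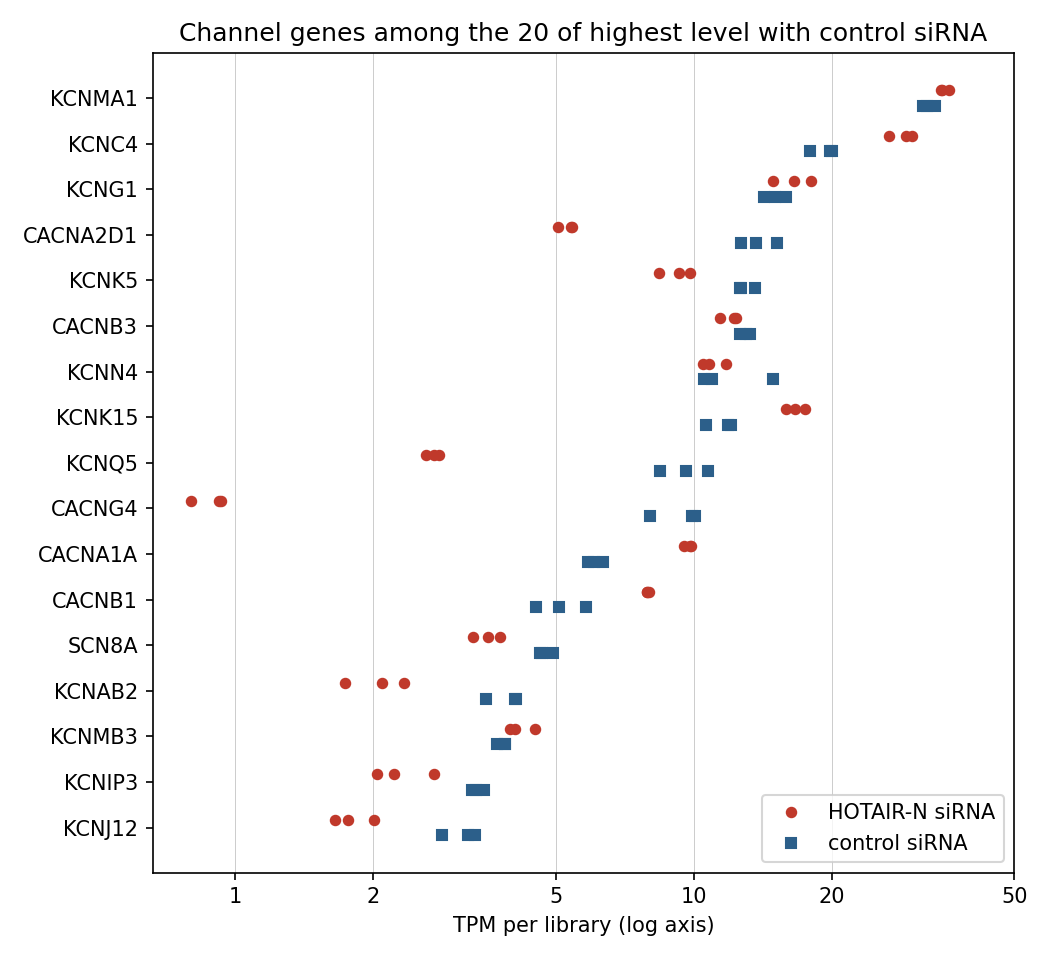
Level of 17 channel genes named in the text, taken from the 20 of highest mean TPM with control siRNA. Each point is 1 library, with HOTAIR-N siRNA as red circles above control siRNA as blue squares, on a log axis in TPM. CACNG4, KCNQ5 and CACNA2D1 lie far to the left of their control points, and KCNC4 and CACNA1A to the right.

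Of the 71 channel genes tested, 46 (64.8%) differed between the siRNAs in edgeR's quasi-likelihood test at an adjusted p under 0.05, beside 57.5% of all 15072 genes tested. With HOTAIR-N siRNA 27 rose (38.0%, beside 28.7% of all genes), 19 fell (26.8%, beside 28.8%) and 25 did not pass. These shares of all genes also stand beside each count by class given below, and most classes held few tested genes. In bulk RNA, a change in the share of cells that express a gene and in RNA per cell cannot be told apart. Values are given as CPM, counts scaled to library size. The groups did not overlap for 51 of the 71 (71.8%, beside 62.9% of all genes). Changes of 2-fold or more were made by 16 channel genes, 8 in each direction, or 22.5% of those tested beside 8.67% of all genes (4.32% higher and 4.35% lower). Low counts go with larger fold changes in these tables, and the channel genes were low, with a median of 1.36 log2 CPM beside 4.34 over all genes. At 1 log2 CPM or more, 7 of 39 channel genes (17.9%) moved by 2-fold or more, beside 5.83% of all genes, and below it 9 of 32 (28.1%), beside 21.4%. The median log2 fold change was 0.18 for the channel genes and 0.01 for all genes, and the median of the absolute values 0.63 and 0.29. In a test against a fold of 1.5, 19 of the 71 passed (26.8%, beside 11.3% of all genes).

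**Figure D2:**
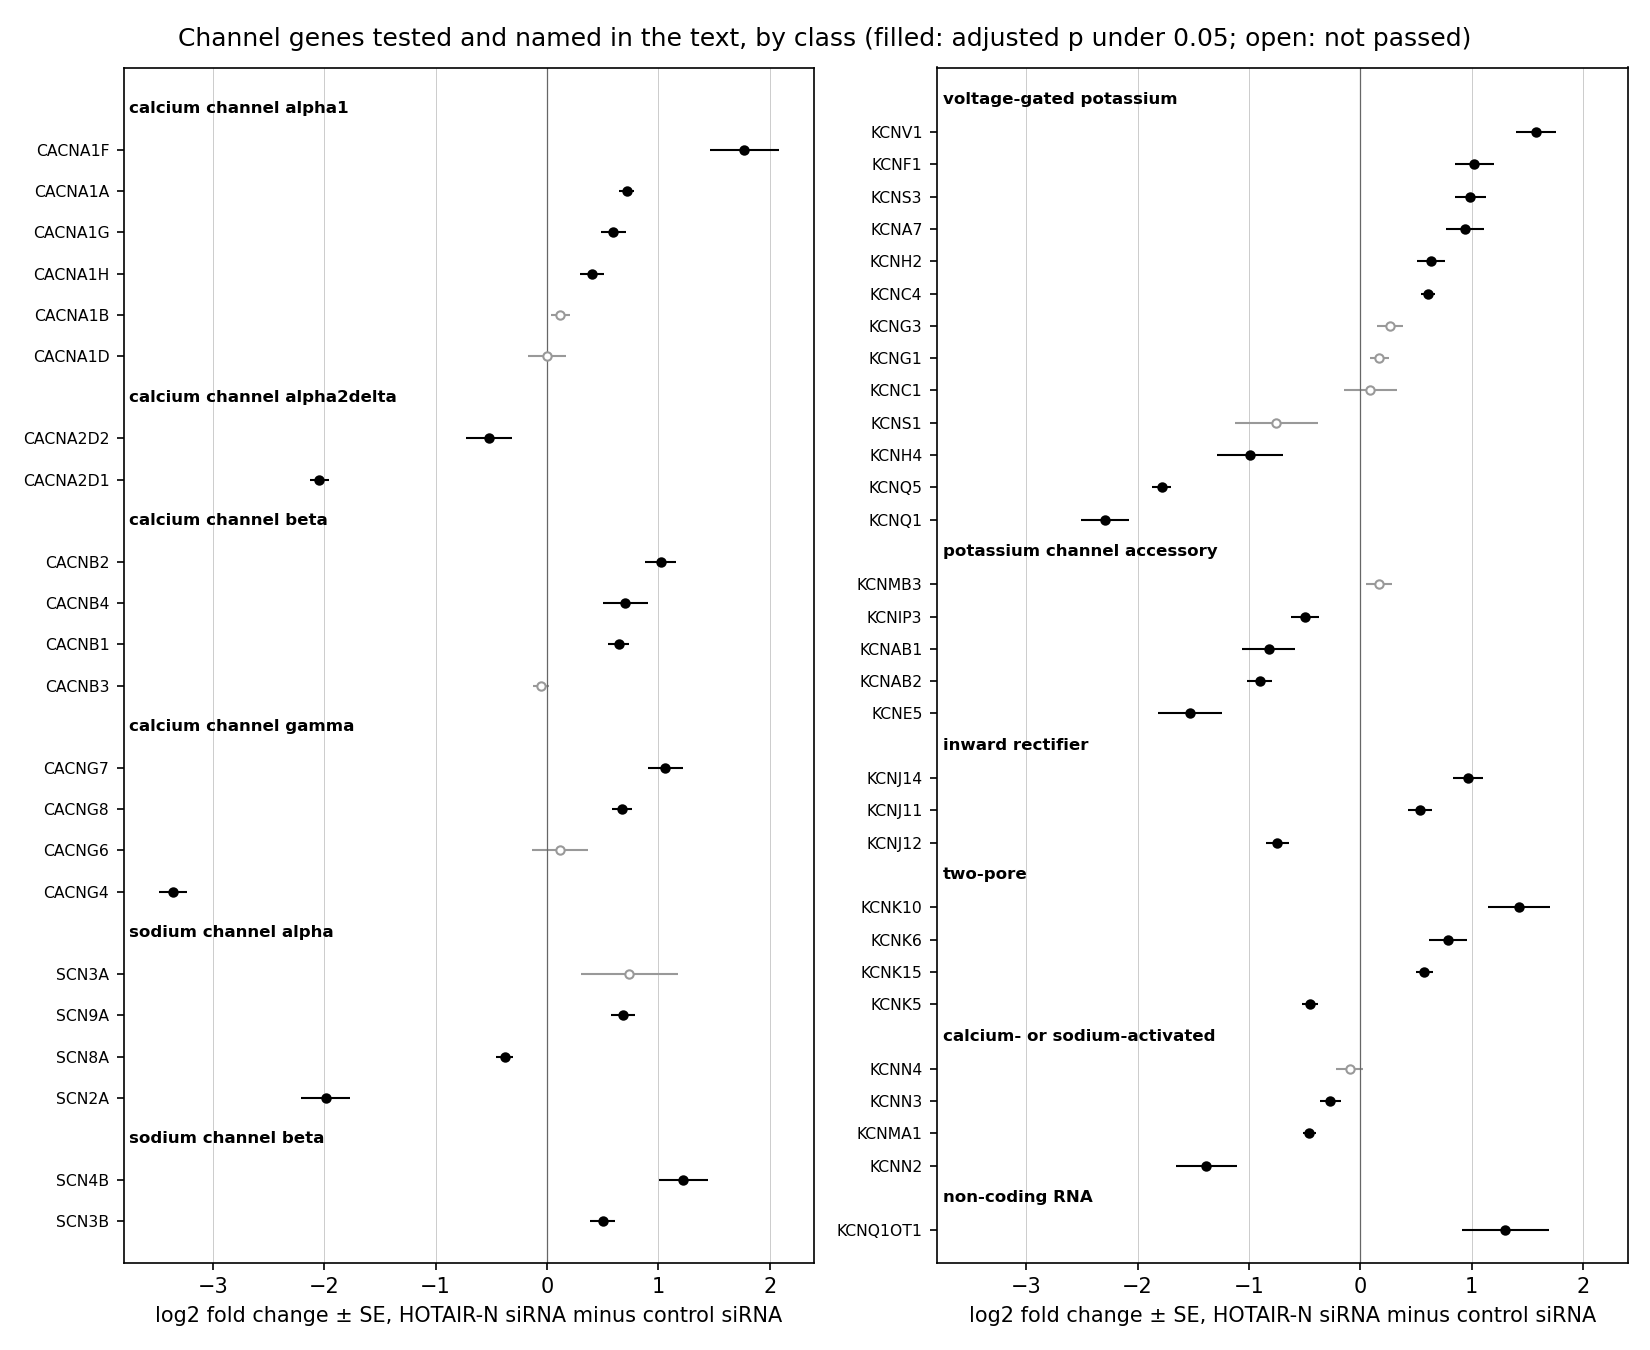
Log2 fold change of 52 tested channel genes named in the text, HOTAIR-N siRNA minus control siRNA, with its SE, by class. Filled points passed at an adjusted p under 0.05 (edgeR), open points did not. Pore-forming calcium channel genes and sodium channel beta genes lie at or above 0, alpha2delta genes below it, and voltage-gated potassium channel genes on both sides.

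Calcium channel pore genes rose or did not pass. Of 10 alpha1 genes 6 were tested, 4 rose, none fell and 2 did not pass, with a median log2 fold change of 0.50. Of all genes tested, 28.7% rose and 28.8% fell. CACNA1A, the P/Q-type pore of presynaptic terminals, was the most abundant of them. It had 43.4, 44.4 and 44.01 CPM with HOTAIR-N siRNA, against 28.6, 24.9 and 26.8 CPM with control siRNA, a log2 fold change of 0.71 (SE 0.07; edgeR, adjusted p = 4.19e-07). Each HOTAIR-N siRNA library lay above each control library. The T-type pores CACNA1G and CACNA1H, which open at low voltage, rose by 0.59 and 0.41 on the log2 scale, and the retinal L-type pore CACNA1F, chosen like the T-type genes after its values were seen, had 0.945, 0.706 and 0.618 CPM with HOTAIR-N siRNA, against 0.173, 0.229 and 0.249 CPM with control siRNA. The N-type pore CACNA1B (0.12) and the L-type pore CACNA1D (0.00) did not pass.

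The beta genes moved the same way, with 3 of 4 higher and 1 not passed, beside 28.7% of all genes higher. CACNB2, a beta subunit best known from the heart, rose to 3.14, 3.91 and 4.01 CPM with HOTAIR-N siRNA, against 1.85, 1.72 and 1.88 CPM with control siRNA, a log2 fold change of 1.02 (SE 0.14; edgeR, adjusted p = 2e-05). CACNB1, the skeletal muscle form, had 13.7, 13.7 and 14.01 CPM with HOTAIR-N siRNA, against 10.1, 8.600 and 7.85 CPM with control siRNA, a log2 fold change of 0.64 (SE 0.09; edgeR, adjusted p = 3.19e-05). CACNB4, named after its values were seen, rose by 0.70 on the log2 scale. The beta gene of highest level, CACNB3, did not pass at -0.05 (SE 0.07), with 16.7, 15.4 and 16.3 CPM with HOTAIR-N siRNA, against 16.8, 16.1 and 17.2 CPM with control siRNA, and its groups overlapped.

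CACNA2D1, which encodes the alpha2delta subunit that binds gabapentin, fell. Its values were 11.9, 12.6 and 12.9 CPM with HOTAIR-N siRNA, against 45.02, 56.4 and 52.9 CPM with control siRNA, a log2 fold change of -2.05 (SE 0.09; edgeR, adjusted p = 1.55e-10). The lowest control library was more than 3 times the highest HOTAIR-N siRNA library. Per length the difference was smaller, with 5.05, 5.39 and 5.43 TPM with HOTAIR-N siRNA, against 12.7, 15.2 and 13.7 TPM with control siRNA, and the isoforms that differ in length are described below. CACNA2D2, the only other alpha2delta gene tested, fell by 0.52 on the log2 scale (SE 0.21; edgeR, adjusted p = 0.0457), but its groups overlapped. That call was lost in 9 of the alternatives other than the 1.5-fold test, among them DESeq2 (adjusted p = 0.130) and leaving out control replicate 2 (log2 fold change -0.39, edgeR, adjusted p = 0.181).

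CACNG4 had the steepest fall of any channel gene. It encodes a membrane protein that is known as an auxiliary subunit of AMPA-type glutamate receptors and, by sequence, belongs to the calcium channel gamma family. It had 53, 55 and 49 expected counts with HOTAIR-N siRNA and 594, 576 and 495 with control siRNA, or 1.61, 1.62 and 1.38 CPM with HOTAIR-N siRNA, against 17.2, 16.5 and 13.7 CPM with control siRNA. What was left was 9.73% of control, a log2 fold change of -3.36 (SE 0.12; edgeR, adjusted p = 4.93e-11). No library of 1 group came near the other group. Across the 6 leave-one-out fits its fold change stayed between -3.46 and -3.28.

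CACNG7 and CACNG8, of the same family and also AMPA receptor auxiliary subunits, went the other way. CACNG7 had 3.11, 3.82 and 3.87 CPM with HOTAIR-N siRNA, against 2.11, 1.46 and 1.603 CPM with control siRNA, a log2 fold change of 1.06 (SE 0.16; edgeR, adjusted p = 4.24e-05). CACNG8 had 8.47, 8.26 and 7.52 CPM with HOTAIR-N siRNA, against 4.97, 5.22 and 5.001 CPM with control siRNA, a log2 fold change of 0.67 (SE 0.09; edgeR, adjusted p = 2.13e-05). In both, the groups did not overlap. CACNG6, a muscle-type member that lies next to CACNG8 on chromosome 19, did not pass (0.12, SE 0.25). CACNG1 and CACNG5, the genes on either side of CACNG4 in the RefSeq order, were too low to test. The kinase gene PRKCA just beyond CACNG5 fell by 1.09 on the log2 scale. HELZ, just beyond CACNG1, had a log2 fold change of -0.19 (edgeR, adjusted p = 0.0185). Of 10 further AMPA receptor genes (subunits and auxiliary proteins), 4 were tested. CNIH3, an export factor of the receptor, fell by 0.77, none rose, and 3 did not pass. Over all genes tested 28.7% rose and 28.8% fell, and 4 genes are too few to show a trend.

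**Figure D3:**
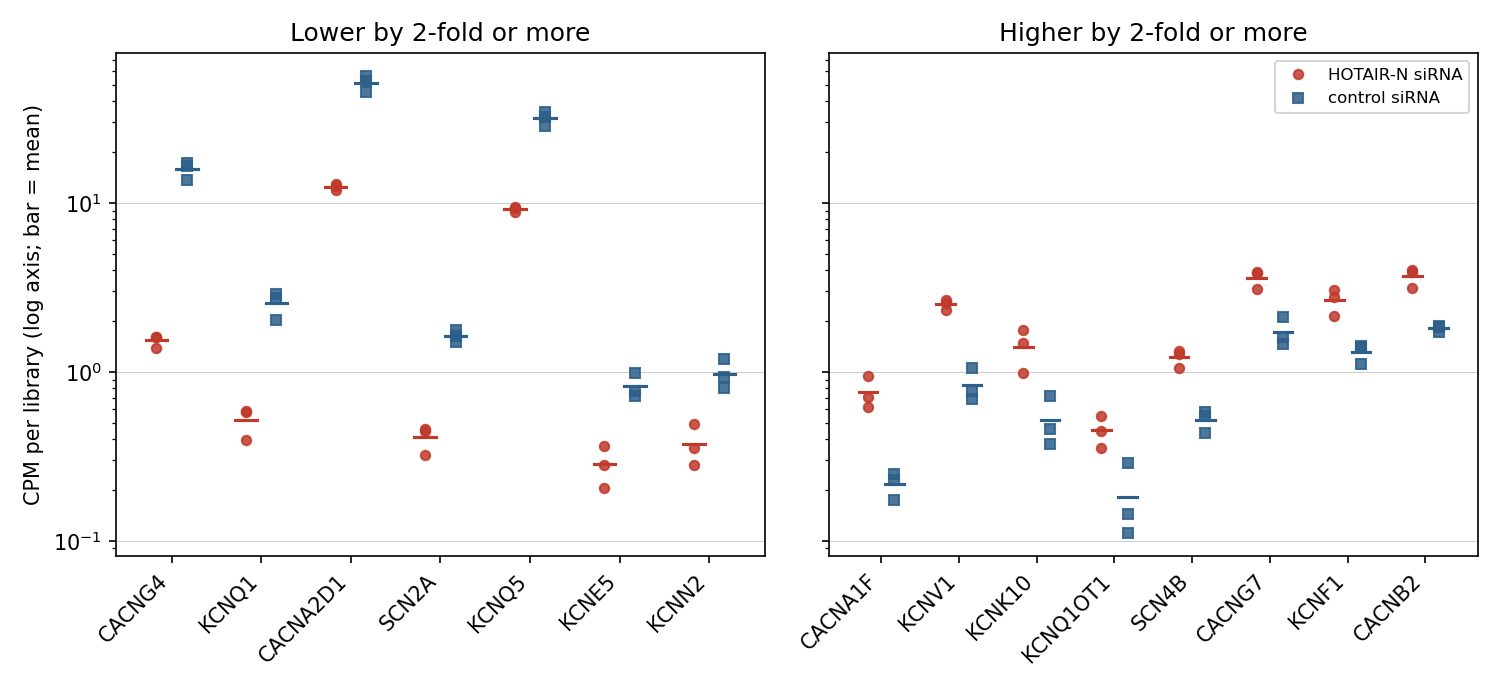
Channel genes named in the text that passed and moved by 2-fold or more, ordered by fold change. Each point is the CPM of 1 library on a log axis, with HOTAIR-N siRNA (red circles) left of control siRNA (blue squares), and bars are means. In the 15 genes drawn the groups do not overlap; CACNG4, CACNA2D1 and KCNQ5 lie above 10 CPM with control siRNA, and all 8 genes on the right lie under 5 CPM.

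Among the sodium channel genes all 3 tested beta genes rose, beside 28.7% of all genes tested. SCN3B, the most abundant, had 6.46, 6.94 and 6.76 CPM with HOTAIR-N siRNA, against 3.99, 5.05 and 5.22 CPM with control siRNA, a log2 fold change of 0.50 (SE 0.11; edgeR, adjusted p = 0.00139). SCN4B, named after its values were seen, rose by 1.22 on the log2 scale.

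Pore-forming sodium channel genes were split, with 1 higher, 2 lower and 2 not passed of 5 tested. SCN8A, a pore of axon initial segments and the most abundant, had 23.01, 21.4 and 19.7 CPM with HOTAIR-N siRNA, against 27.8, 26.5 and 29.1 CPM with control siRNA, a log2 fold change of -0.38 (SE 0.08; edgeR, adjusted p = 0.000533). SCN2A, the pore of immature axons, had 0.457, 0.324 and 0.449 CPM with HOTAIR-N siRNA, against 1.504, 1.78 and 1.63 CPM with control siRNA, a log2 fold change of -1.99 (SE 0.22; edgeR, adjusted p = 1.98e-06). SCN9A, best known from pain-sensing neurons, had 6.16, 6.18 and 5.92 CPM with HOTAIR-N siRNA, against 3.33, 3.98 and 4.03 CPM with control siRNA, a log2 fold change of 0.68 (SE 0.11; edgeR, adjusted p = 7.39e-05). Groups did not overlap in these 3 genes. SCN3A (0.74, SE 0.44) did not pass, except without HOTAIR-N siRNA replicate 2 (log2 fold change 1.07, edgeR, adjusted p = 0.0359).

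Voltage-gated potassium channels held both directions, with 8 higher, 5 lower and 7 not passed among 20 tested of 40. Their log2 fold changes ran from -2.29 to 1.58. KCNQ5, a subunit of the M-current that steadies the resting potential of neurons, fell. It had 9.35, 9.47 and 8.84 CPM with HOTAIR-N siRNA, against 28.7, 34.5 and 32.1 CPM with control siRNA, a log2 fold change of -1.79 (SE 0.08; edgeR, adjusted p = 3.5e-10). KCNQ1, the pore of the slow cardiac and epithelial potassium current, fell to 0.579, 0.588 and 0.393 CPM with HOTAIR-N siRNA, against 2.75, 2.895 and 2.02 CPM with control siRNA, a log2 fold change of -2.29 (SE 0.22; edgeR, adjusted p = 4.65e-07).

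The products of the KCNF, KCNG, KCNS and KCNV genes are electrically silent alone and form channels only together with other subunits. Of 6 such genes tested, a grouping made after the values were seen, 3 rose and 3 did not pass. KCNS3 had 3.78, 3.82 and 3.45 CPM with HOTAIR-N siRNA, against 1.65, 2.12 and 1.796 CPM with control siRNA, a log2 fold change of 0.99 (SE 0.14; edgeR, adjusted p = 2.12e-05). KCNV1 had 2.32, 2.56 and 2.67 CPM with HOTAIR-N siRNA, against 0.694, 0.774 and 1.05 CPM with control siRNA, a log2 fold change of 1.58 (SE 0.18; edgeR, adjusted p = 3.28e-06). KCNF1, named after its values were seen, rose by 1.02. In none of these 3 did the groups overlap. KCNG1, the silent subunit of highest level, did not pass at 0.17 (SE 0.08), nor did KCNG3 (0.27) and KCNS1 (-0.76). Each of them passed in some alternative in edgeR, KCNG1 without control replicate 1 at 0.24 (adjusted p = 0.0180) and KCNS1 without control replicate 3 at -1.03 (adjusted p = 0.0284). KCNG3 passed at 0.28 to 0.29 with upper-quartile scaling, with library totals and with a stricter filter on low counts (edgeR, adjusted p = 0.0451 to 0.0477).

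KCNC4, of a family of pores that let neurons fire at high rates, rose. It had 60.8, 66.9 and 64.8 CPM with HOTAIR-N siRNA, against 44.3, 42.3 and 39.6 CPM with control siRNA, a log2 fold change of 0.61 (SE 0.07; edgeR, adjusted p = 1.54e-06). Every HOTAIR-N siRNA library was above every control library. KCNC1, at under 1 CPM, did not pass (0.09). Of the remaining voltage-gated potassium genes, named after their values were seen, the cardiac repolarising pore KCNH2 rose by 0.63 and KCNA7 by 0.94, and KCNH4 fell by 0.99 on the log2 scale (SE 0.30; edgeR, adjusted p = 0.0109), a call that was lost with DESeq2 (adjusted p = 0.0509) and without control replicate 1 (log2 fold change -0.75, edgeR, adjusted p = 0.0614).

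No auxiliary potassium channel gene passed as higher. Of 18, 9 were tested, 4 fell and 5 did not pass, beside 28.7% higher and 28.8% lower of all genes tested. KCNAB2, a cytoplasmic beta subunit related to aldo-keto reductases, had 3.53, 4.76 and 4.27 CPM with HOTAIR-N siRNA, against 7.43, 7.91 and 8.18 CPM with control siRNA, a log2 fold change of -0.90 (SE 0.11; edgeR, adjusted p = 7.07e-06). KCNE5, a membrane-spanning partner of KCNQ1, had 0.366, 0.206 and 0.281 CPM with HOTAIR-N siRNA, against 0.983, 0.774 and 0.718 CPM with control siRNA, a log2 fold change of -1.53 (SE 0.29; edgeR, adjusted p = 0.000362). These are few reads, since KCNE5 had 7 to 12 expected counts per library with HOTAIR-N siRNA. KCNIP3, the calcium-binding protein also called calsenilin, fell by 0.50 and KCNAB1 by 0.82 on the log2 scale, both named after their values were seen, and KCNAB1 did not pass without HOTAIR-N siRNA replicate 2 (log2 fold change -0.59, edgeR, adjusted p = 0.0530). The BK beta subunit KCNMB3, the accessory gene of highest level, did not pass (0.16, SE 0.12).

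Channels that open by other means than voltage were mixed. Of the KCNJ inward rectifiers 5 of 16 were tested, with 2 higher, 1 lower and 2 not passed. KCNJ12, a strong rectifier, had 4.81, 5.44 and 4.43 CPM with HOTAIR-N siRNA, against 8.67, 8.46 and 7.49 CPM with control siRNA, a log2 fold change of -0.74 (SE 0.10; edgeR, adjusted p = 2.42e-05). KCNJ18 is nearly identical to KCNJ12, so the division of reads between them is uncertain, and the sum of both was 158, 205 and 172 expected counts with HOTAIR-N siRNA, against 300, 295 and 271 with control siRNA. KCNJ14, of the same subfamily, had 4.14, 4.68 and 4.01 CPM with HOTAIR-N siRNA, against 2.52, 2.01 and 2.04 CPM with control siRNA, a log2 fold change of 0.97 (SE 0.13; edgeR, adjusted p = 2.04e-05). KCNJ11, the pore of the ATP-sensitive channel and named after its values were seen, rose by 0.53. Of the KCNK leak channels 6 of 15 were tested, with 3 higher, 1 lower and 2 not passed. KCNK5, an alkaline-activated channel of epithelia, had 16.4, 17.9 and 18.8 CPM with HOTAIR-N siRNA, against 24.3, 24.7 and 23.9 CPM with control siRNA, a log2 fold change of -0.45 (SE 0.07; edgeR, adjusted p = 8.25e-05). KCNK15 had 21.1, 22.00 and 19.9 CPM with HOTAIR-N siRNA, against 15.2, 14.1 and 13.1 CPM with control siRNA, a log2 fold change of 0.58 (SE 0.08; edgeR, adjusted p = 1.75e-05). Both were above 8 TPM in every library, and with HOTAIR-N siRNA KCNK15 stood above KCNK5 in level. KCNK10 (1.42) and KCNK6 (0.79), named after their values were seen, rose.

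Of the calcium- or sodium-activated potassium channel genes 6 of 8 were tested, 3 fell and 3 did not pass. KCNMA1 had 52.5, 51.6 and 48.98 CPM with HOTAIR-N siRNA, against 67.8, 72.4 and 69.8 CPM with control siRNA, a log2 fold change of -0.46 (SE 0.06; edgeR, adjusted p = 1.11e-05). Its level per length was not lower. It was 34.6, 36.04 and 34.9 TPM with HOTAIR-N siRNA, against 32.3, 33.5 and 31.6 TPM with control siRNA, and the isoforms described below differ in length. KCNN2 and KCNN3, small-conductance channels named after their values were seen, fell by 1.38 and 0.27. The call of KCNN3 was lost without HOTAIR-N siRNA replicate 2 or 3 and without control replicate 2, where its value was -0.16 (edgeR, adjusted p = 0.162). KCNN4, the intermediate-conductance channel, did not pass (-0.10), and its highest value was control replicate 1, at 16.4 CPM beside 11.4 and 11.4 in the other controls.

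KCNQ1OT1, a non-coding RNA that runs antisense within KCNQ1 and is known for silencing imprinted neighbours, went the other way from KCNQ1. It had 0.548, 0.353 and 0.449 CPM with HOTAIR-N siRNA, against 0.289, 0.143 and 0.111 CPM with control siRNA, a log2 fold change of 1.303 (SE 0.39; edgeR, adjusted p = 0.0104). These are 4 to 18 expected counts per library, and it did not pass without control replicate 3 (log2 fold change 1.04, edgeR, adjusted p = 0.0513). The kit keeps the strand of the RNA, but no source used here states how strand was treated in counting, so reads of KCNQ1 and KCNQ1OT1, and of KCNK15 and its antisense gene, may not be told apart.

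Short sequences in the 3′ UTRs are shown for the channel genes that carry a word tied to lower expression across all genes in these data. That word, GACCAAT, and its shifted form ACCAATA were picked from earlier results of the same libraries, so the counts here describe and do not test it. Of 67 tested channel genes with a 3′ UTR in GENCODE 29, 8 carried either word (11.9%, beside 10.7% of 12551 genes) and 5 carried GACCAAT (7.46%, beside 5.42%). Both words were searched on the transcript strand, and in KCNC4 they overlap. The KCNC4 site lies at base 6610 of a GENCODE 3′ UTR of 16815 bases. The KCNC4 isoforms tested here were 3747 to 4437 bases in full, too short to reach it. KCNC4 is thus a carrier by the GENCODE transcript only. All sites of CACNA2D1, the steepest fall among the carriers, and the GACCAAT sites of KCNC4 and SCN3B, which moved the other way, are given 5′ to 3′, with the word in capitals and 8 bases on each side.
CACNA2D1 site 1: caattgatGACCAATtcaatttt
CACNA2D1 site 2: aagatataACCAATAatttaacg
CACNA2D1 site 3: ctcccaccACCAATAtaccttag
CACNA2D1 site 4: aagagcaaACCAATAtaatgttt
KCNC4: ggccagaaGACCAATagataaaa
SCN3B: ttgggaagGACCAATggtaattt
On the GRCh38 build the words of CACNA2D1 lie in its 3′ UTR on the minus strand, at chr7:81949773-81949779, chr7:81948584-81948590, chr7:81948506-81948512 and chr7:81946893-81946899. The KCNC4 word is at chr1:110238919-110238925 on the plus strand, and the SCN3B word is at chr11:123633113-123633119 on the minus strand, both in 3′ UTRs.

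The carriers of GACCAAT did not move together. CACNA2D1 fell by 2.05 on the log2 scale. SCN3B rose by 0.50, and KCNC4, whose site lies beyond the isoforms tested here, by 0.61. Over all genes the median log2 fold change was -0.38 with GACCAAT and 0.02 with neither word. Of 680 carriers 410 fell, beside 3119 of 11209 genes with neither word. The word was picked from these libraries, so these counts do not test it. These carriers also had longer 3′ UTRs, with a median of 2740.5 bases beside 919 with neither word. The part of UTR length in this difference was not tested. CACNG8 and CACNB4, which carry ACCAATA alone, rose. CACNG4, KCNQ1, SCN2A and KCNE5, among the steepest falls, held neither word in the 3′ UTR searched, and KCNQ5, CACNB2, KCNIP3 and KCNQ1OT1 were not searched. Carriers among the channel genes had long 3′ UTRs, with a median of 5480.5 bases beside 1379 in those without a word.

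Isoforms were tested apart from their genes. Of 419 isoforms of the channel genes 109 were tested and 26 (23.9%) passed, beside 19.5% of all isoforms, with 18 higher (16.5%, beside 9.39%) and 8 lower (7.34%, beside 10.1%). All but 1 moved as their gene did. The exception was a short isoform of KCNMA1, NM_001271522 of 868 bases, beside the 6103-base isoform NM_002247. The short form had 180.5, 188 and 168 expected counts with HOTAIR-N siRNA, against 92.5, 77.5 and 81.8 expected counts with control siRNA, a log2 fold change of 1.15 (SE 0.17; edgeR, adjusted p = 0.00775). The long form had 1283, 1073 and 1035 expected counts with HOTAIR-N siRNA, against 1911, 2190.03 and 2201 expected counts with control siRNA, a log2 fold change of -0.83 (SE 0.12; edgeR, adjusted p = 0.00892). By the deposited estimate the short form made up 42.3, 41.2 and 36.3 percent with HOTAIR-N siRNA, against 22.4, 19.04 and 19.6 percent with control siRNA, and the long form 35.2, 27.7 and 26.5 percent with HOTAIR-N siRNA, against 54.2, 62.8 and 62.04 percent with control siRNA. The groups overlapped for neither form.

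CACNA2D1 had a similar split. Its full-length isoform NM_000722, of 7571 bases, fell to 329, 362 and 393 expected counts with HOTAIR-N siRNA, against 1519, 1969 and 1915 expected counts with control siRNA, a log2 fold change of -2.26 (SE 0.11; edgeR, adjusted p = 0.000409). The short isoform NM_001302890, of 1519 bases, had 60.6, 65.6 and 66.8 expected counts with HOTAIR-N siRNA, against 37.5, 0 and 0 expected counts with control siRNA, and did not pass at 2.37 (SE 1.80). Control replicate 1 alone among the controls had reads assigned to it, and without that library it passed (edgeR, adjusted p = 0.00734). As a percent of the gene the short form stood at 50.3, 49.8 and 48.1 percent with HOTAIR-N siRNA, against 11.96, 0 and 0 percent with control siRNA. KCNJ11 had an isoform, NM_001166290, with 9.74, 30.5 and 19.95 expected counts with HOTAIR-N siRNA and 0 in all 3 control libraries, which is at least 6.97-fold higher when 3 counts per control library are taken as the floor. It passed (edgeR, adjusted p = 0.0258), but not when any 1 HOTAIR-N siRNA library was left out (adjusted p = 0.0807 to 0.133) or without control replicate 2 or 3.

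**Figure D4:**
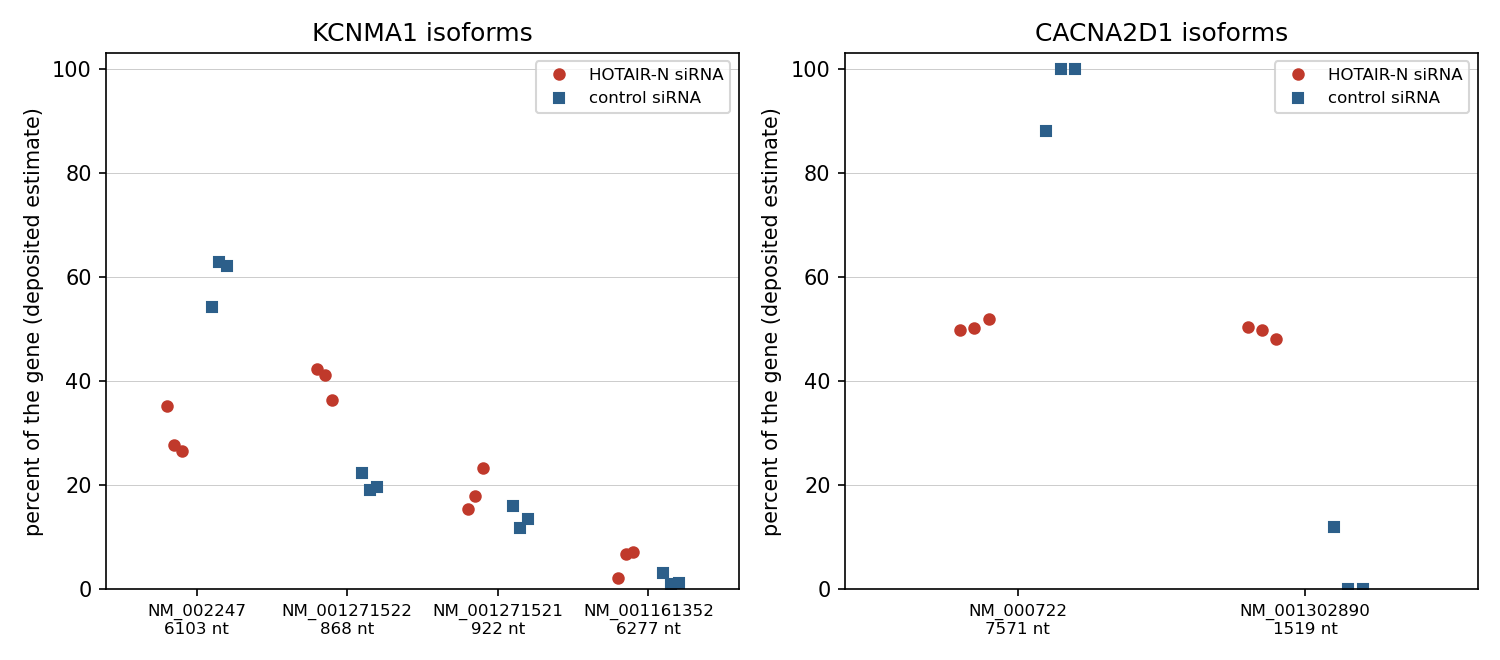
Percent of its gene made up by each isoform, as the authors' tables estimate it, for KCNMA1 (left) and CACNA2D1 (right), with transcript lengths under the names. Each point is 1 library, with HOTAIR-N siRNA (red circles) left of control siRNA (blue squares). The long KCNMA1 isoform stands at 26.5 to 35.2 percent with HOTAIR-N siRNA and 54.2 to 62.8 percent with control siRNA; the short CACNA2D1 isoform stands at 48.1 to 50.3 percent with HOTAIR-N siRNA and 0 to 11.96 percent with control siRNA.

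Whether isoforms of a gene moved unequally was tested for 26 channel genes with several tested isoforms. None passed in edgeR's diffSpliceDGE with Simes p-values, beside 3.10% of all genes. An unadjusted p under 0.05 was reached by 3 (11.5%, beside 8.16%), KCNJ11, KCNMA1 and CACNA2D1, whose adjusted p in diffSpliceDGE was 0.0631, 0.242 and 0.527. The gene-level F test of the same function called KCNJ11 (adjusted p = 0.000806) and KCNMA1 (adjusted p = 0.00870), 7.69% of the 26 beside 10.4% of all genes. Without control replicate 1 the Simes test called CACNA2D1 (adjusted p = 0.00175).

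Genes outside the CACN, SCN and KCN symbols that serve the same channels moved both ways too. Of 38 channel partners and relatives, 37 were in the tables and 26 tested, with 10 higher, 9 lower and 7 not passed. Of all 15072 genes tested, 28.7% were higher and 28.8% lower. STAC, an adaptor that holds L-type calcium channels at the surface, fell by 2.29 on the log2 scale (SE 0.12; edgeR, adjusted p = 7.69e-10). ANK2, the ankyrin that anchors channels and exchangers to the membrane, fell by 1.77 on the log2 scale (SE 0.09; edgeR, adjusted p = 4.85e-10), and AKAP6, a scaffold of protein kinase A in muscle, by 2.24 on the log2 scale (SE 0.17; edgeR, adjusted p = 3.38e-08). CALM3, one of the calmodulin genes whose product is a calcium sensor of many of these channels, fell by 1.04 on the log2 scale (SE 0.05; edgeR, adjusted p = 5.88e-10). All 4 were lower in each of the 3 HOTAIR-N siRNA libraries than in any control library.

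Calcium stores, pumps and exchangers counted 8 higher, 5 lower and 8 not passed of 21 tested. The shares over all genes tested were 28.7% higher and 28.8% lower. The plasma membrane calcium pumps parted, with ATP2B4 lower by 1.34 and ATP2B1 higher by 0.53 on the log2 scale. TPCN1, an endolysosomal channel, fell by 0.94 and MCU, the mitochondrial calcium uniporter, by 0.67. The sodium-potassium pump sets up the gradients that sodium and potassium channels use. Of its 7 genes 5 were tested, with 4 higher, none lower and 1 not passed. Its beta subunit genes ATP1B3 and ATP1B1 rose by 0.58 and 0.55 on the log2 scale.

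Over the 16 alternative ways of testing, no channel gene that passed changed direction. Of the 46, 39 (25 higher and 14 lower) stayed past the threshold in every alternative that tested them, other than the test against a fold of 1.5. Among the 7 that did not were CACNA2D2, KCNAB1, KCNH4, KCNN3 and KCNQ1OT1. Over those alternatives the adjusted p in edgeR, DESeq2 or limma-voom ran from 0.0158 to 0.181 for CACNA2D2 and 0.00367 to 0.0530 for KCNAB1. It ran from 0.00933 to 0.0614 for KCNH4, 0.0122 to 0.162 for KCNN3 and 0.00303 to 0.0513 for KCNQ1OT1. Of the 25 that did not pass, 9 passed in at least 1 alternative. Among these the adjusted p in edgeR, DESeq2 or limma-voom ran from 0.0180 to 0.370 for KCNG1, 0.0451 to 0.194 for KCNG3, 0.0284 to 0.330 for KCNS1 and 0.0359 to 0.719 for SCN3A, leaving aside the test against a fold of 1.5. CACNG4, CACNA2D1, KCNQ5 and KCNV1 passed in the test against a fold of 1.5 as well.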

How the data were processed

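RNA of 6 libraries was analysed, 3 with HOTAIR-N siRNA and 3 with control siRNA, from independent transfections per the labels' design text. Per the submitters' processing notes the tools were RSEM 1.3.0 and STAR 2.6.0c and the build was hg19. The sources used here give neither the annotation release nor the treatment of strand. The authors deposited expected counts per gene and isoform, which per the file headers are RSEM estimates that divide shared reads. The deposited tables also hold TPM, used for levels, FPKM, which was not used, and, for each isoform, its percent of the gene. Totals were 32715361 to 36578681 expected counts.

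Expected counts were rounded and tested over all genes with edgeR 4.0.16 in R 4.3.3 (filterByExpr, TMM, robust quasi-likelihood test, Benjamini-Hochberg adjustment, threshold 0.05). Log2 fold changes run as HOTAIR-N siRNA minus control siRNA, and their SE is the fold change divided by the square root of F. The isoform tables were tested likewise, and isoform use with diffSpliceDGE. The steps were tested on simulated data. Alternatives were other scalings and filters, genes under 200 nt left out, DESeq2 1.42.0, limma-voom (limma 3.58.1), glmTreat against a fold of 1.5, the replicate number as a block, and each library left out.

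Genes named are CACNG4, the 12 smallest p in each direction, the tested gene of highest TPM in each class, KCNQ1OT1, and up to 4 of each outside list; any other gene was named after its values were seen. Some genes that this rule takes are not reported here and not drawn. The genes and lists were chosen with earlier results of these data known. 3′ UTRs of at least 50 bases came from GENCODE 29 on GRCh38, another build than the tables, matched by each gene's most abundant RefSeq isoform. The GENCODE transcript can be longer than the isoform counted, as for KCNC4.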

Additional observations from a re-analysis of the deposited data

How the results depend on the processing

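The count of channel genes that passed lay between 40 and 53 under the scalings, filters, tools and left-out libraries, against 46, and between 44 and 49 when 1 library was left out. Against a fold of 1.5, glmTreat called 19, 10 of them higher and 9 lower, since that test asks for a larger change. The deviations of same-numbered libraries from their group means had correlations of -0.12, 0.02 and -0.04. Those of other pairs ran from -0.14 to 0.17. With 3 libraries per group these values cannot show whether the numbers pair the samples. With the replicate number as a block 46 channel genes passed, 26 higher and 20 lower, and 6 isoforms passed in place of 26, and no channel gene passed for isoform use. The cause of the lower isoform count was not tested. With 1 library left out, 13 to 27 isoforms and 0 to 1 genes for isoform use passed, and DESeq2 called 36 isoforms. The gene-level F test called 2 genes for isoform use. KCNN4, which did not pass, ranged from -0.19 to 0.10 on the log2 scale when 1 library was left out, and was positive without control replicate 1. HOTAIR stayed between -1.14 and -0.94. The median log2 fold change of all genes was 0.00 to 0.03 under the scalings and filters. Genes at about 1 CPM or less, such as CACNA2D2, KCNAB1, KCNH4 and KCNQ1OT1, rest on few reads, and isoform values carry the error of dividing shared reads.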
